A study of Mus musculus with 36 samples.

Results

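The comparison described here set mouse ureteric bud progenitor-like cells made from embryonic stem cells (eUB) against each of the 2 kidney mesenchymes made from embryonic stem cells, the nephron progenitor-like cells (iNP) and the stromal progenitor-like cells (iSP). It used 12 of the 36 RNA sequencing libraries of the series, 4 from each group. Of 22761 genes in the table, 14733 reached a value of at least 1 (a normalised CPM, the read count of a gene scaled to the depth of its library) in at least 4 of the 12 libraries and were tested, and 6805 of them differed in the same direction from both iNP and iSP. Those 6805 genes are the members described here, 3401 higher and 3404 lower in eUB.

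The eUB, which the sample labels call iUB, came from a line labelled Sox9-mCherry-mESC, whose embryoid bodies passed through Activin A, BMP4 with the WNT agonist CHIR99021, retinoic acid with FGF9 and SB431542, and finally a ureteric bud medium with Matrigel and GDNF, before EpCAM positive, mCherry positive cells were sorted. The iNP and iSP came from E14 mESC by a different protocol with Activin A, CHIR99021, BMP4, retinoic acid and FGF9. Both were sorted from the same embryoid bodies as cells negative for CD31 and for EpCAM and RET, iNP as ITGA8 high and PDGFRA low, iSP as ITGA8 low and PDGFRA high. The remaining libraries of the series were cells sorted from CD1 mouse kidneys, namely ureteric bud (UB), nephron progenitors (NP) and stromal progenitors (SP), at E11.5 and E12.5, pooled over a litter. The embryonic stem cell line, the culture protocol and the sort therefore all changed together with the cell type between eUB and the mesenchymes, and their parts in a difference cannot be told apart. Each library was a sort from pooled embryoid bodies, so the p-values measure the spread between differentiations of 1 line per protocol.

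The ureteric bud is an epithelial outgrowth of the nephric duct that branches into the collecting duct tree of the kidney. Its tip cells carry the receptor RET with its co-receptor GFRA1 and respond to GDNF, a ligand released by the nephron progenitors that cap each tip. The bud in turn sends WNT ligands to the mesenchyme, where nephron progenitors later become epithelial and stromal progenitors stay as interstitial, matrix-producing cells. Epithelia hold their shape through cadherins, claudins, keratins and a laminin sheet, and factors such as GRHL2, OVOL and ESRP keep that program on. The ZEB and SNAI repressors of mesenchyme bind CAGGTG letters, read as CACCTG on the other strand, in the promoters of epithelial genes such as E-cadherin.

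The 12 libraries held 13004352 to 42285348 reads on genes, and 3 reads corresponded to a value of 0.0683 to 0.223. Pearson correlations of log2(value + 1) over the tested genes were 0.971 to 0.997 within eUB, 0.966 to 0.997 within iNP and 0.992 to 0.997 within iSP, against 0.824 to 0.873 between eUB and iNP and 0.828 to 0.842 between eUB and iSP. Libraries eUB-1 and iNP-2 stood apart from their groups. In eUB-1, 786 genes lay more than 1 log2 unit from the mean of the other eUB libraries and in iNP-2 1066 genes did, against 84 or fewer in each of the other 10 libraries. In both the deviation moved with transcript length, with a median of 0.24 over genes with transcripts of at most 2022 bases and -0.33 over those of at least 4748 bases for eUB-1, and of 0.40 and -0.62 for iNP-2. Without eUB-1 the count of genes called in both was 3914 higher and 3675 lower, and without iNP-2 it was 3686 and 3873.

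Differences below are on the log2(value + 1) scale, where a change in a weakly expressed gene appears smaller than its ratio. They were tested with limma, a linear model fitted across all genes, and a gene was called at a Benjamini-Hochberg adjusted p under 0.05. Against iNP, 8650 genes were called, 58.7% of those tested (28.3% higher, 30.4% lower in eUB). Against iSP, 8754 were called, 59.4% (29.3% higher, 30.1% lower). In both and in the same direction, 23.1% of tested genes were called higher and 23.1% lower, together 46.2%, and 198 genes (1.34%) were called in opposite directions. Both comparisons share the eUB libraries, and iNP and iSP the embryoid bodies, so the comparisons are not independent and agreement in direction is partly built in. The smaller of a gene's 2 differences had a median of 0.83 among the higher and -0.68 among the lower members, and it exceeded 3 for 242 higher and 140 lower genes. In 2921 higher genes (19.8% of those tested) every eUB library lay above all 8 mesenchyme libraries, and in 2874 lower genes (19.5%) every one lay below. Over all tested genes, called or not, these separations occurred in 20.8% and 20.3%. A test against a difference of at most 1 log2 unit (limma treat) called 965 genes (6.55%) higher and 622 (4.22%) lower. The even split depends on scaling, since upper-quartile scaling, which moved the median of all genes to -0.20 from iNP and -0.14 from iSP, gave 2644 higher and 4476 lower. List members are taken below in the order of the smaller of their 2 differences. Of the 478 genes on the 31 lists used below, 423 passed the filter on low values, and a gene detected in a single group could pass through that group alone.

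**Figure D1:**
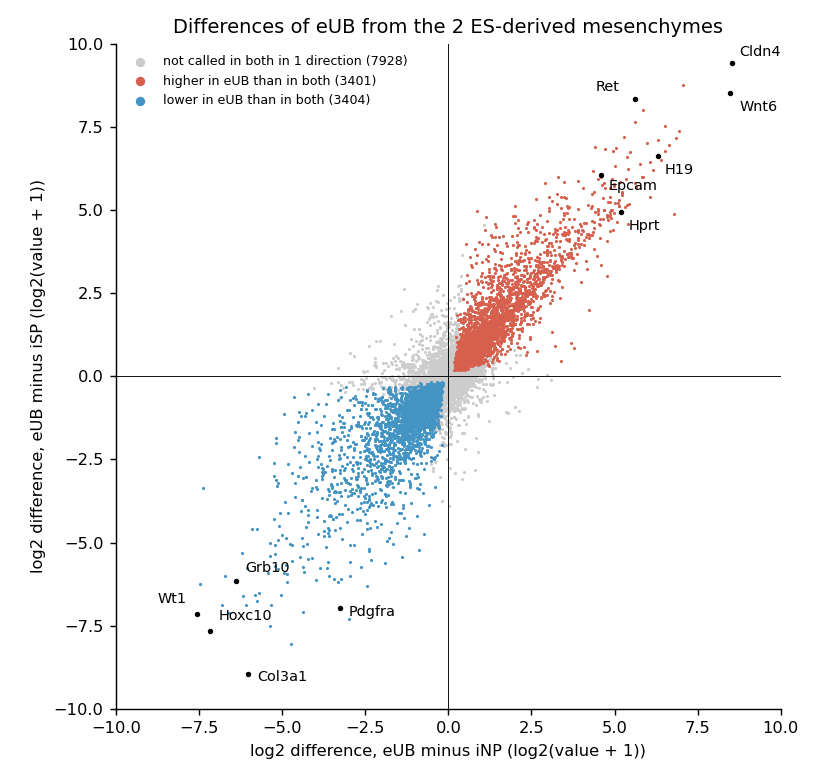
Log2 difference of eUB from iNP (x axis) and from iSP (y axis) for the 14733 tested genes, each point a gene, in red the 3401 called higher and in blue the 3404 called lower in eUB than in both. The named genes lie far out along the diagonal, from Cldn4 and Wnt6 at the upper right to Wt1, Hoxc10 and Col3a1 at the lower left.

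The genes behind the sorts are a check of the labels and no finding, and all but Pecam1 separated the groups in the direction of the gates. Epcam, the epithelial adhesion molecule used to collect eUB, had values of 684, 674, 588 and 651 in eUB, 21.9 to 33.0 in iNP and 8.11 to 9.81 in iSP. For Ret, the GDNF receptor used to exclude bud-like cells from the mesenchymes, they were 489, 498, 485 and 420 in eUB, 6.43 to 11.04 in iNP and 0.193 to 1.07 in iSP. Pdgfra, the stromal sort marker, was at 1.34 to 2.90 in eUB, 17.7 to 44.9 in iNP and 363 to 434 in iSP. Itga8, the nephrogenic sort marker, was at 9.76 to 10.4 in eUB, 75.5 to 230.1 in iNP and 56.1 to 60.2 in iSP. Sox9 (186 to 218 in eUB, 34.6 to 91.5 in the mesenchymes) and Sox8 (77.3 to 106 in eUB, 4.96 to 10.5 in the mesenchymes) were both higher in eUB. The line is named Sox9-mCherry for these libraries. The paper describes the making of a Sox8-mCherry line and shows an eUB sort by SOX8-mCherry. The values cannot show which name is right. Pecam1, which encodes CD31, was at 0.426 or lower in eUB and at 2.49 to 5.56 in the mesenchymes that had been gated negative for it.

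Among protein-coding members with no overlap between eUB and the 8 mesenchyme libraries, the 10 with the largest increases, ordered by the smaller of their 2 differences, were Cldn4, Wnt6, Aldh1a3, Plagl1, Esrp1, Mal2, Atf3, Cldn3, Aldh1a1 and Cdh16. Cldn4, a claudin of collecting duct tight junctions (chromosome 5, 134945119 to 134946934, GRCm38), had values of 1539, 1398, 1191 and 1305 in eUB, 2.64, 3.31, 2.69 and 2.16 in iNP and 1.06, 1.54, 0.923 and 0.541 in iSP. The groups lay far from each other, and the differences were 8.52 (SE 0.15, limma adjusted p = 1.6e-13) from iNP and 9.41 (SE 0.15, adjusted p = 5.7e-14) from iSP. Wnt6, a WNT ligand (chromosome 1, 74771892 to 74785322), was at 431, 393, 353 and 387 in eUB. It did not exceed 0.264 in any mesenchyme library, close to the value of 3 reads, and differed by 8.49 and 8.52 (SE 0.10 each).

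The 10 included a pair of aldehyde dehydrogenases that make retinoic acid. Aldh1a3 was at 787 to 917 in eUB, 4.30 to 6.01 in iNP and 0.574 to 1.25 in iSP, and Aldh1a1 at 80.0 to 108 in eUB and at most 0.262 in the mesenchymes. The other 6 were Plagl1 (145 to 248 against at most 1.03), an imprinted zinc finger gene described below, Esrp1 (190 to 208 against at most 1.02), an epithelial splicing regulator, Mal2 (137 to 149 against at most 0.774), a protein of apical transport, Atf3 (281 to 578 against 2.47 to 4.46), a stress-induced transcription factor, Cldn3 (212 to 367 against at most 2.33), a second claudin, and Cdh16 (227 to 304 against at most 3.28), the kidney epithelial cadherin. The differences of these 8 genes from iNP lay between 6.30 and 7.05 and from iSP between 6.52 and 8.76.

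The 10 largest decreases, in the same order of size, were those of Hoxc10, Wt1, Shisa3, Meox1, Des, Hoxa10, Grb10, Cdkn1c, Col3a1 and Foxc2. Hoxc10, a posterior Hox gene, was at 0, 0, 0 and 0.0708 in eUB, under the value of 3 reads in each library. It was at 136, 153, 155 and 141 in iNP and at 204, 208, 202 and 202 in iSP. Wt1, a zinc finger factor needed for nephron progenitors, was at 0.149, 0.248, 0.129 and 0.142 in eUB, at 215, 185, 253 and 229 in iNP and at 146, 187, 176 and 150 in iSP, with differences of -7.56 and -7.14 (SE 0.11 each, limma adjusted p = 6.5e-14 and 4.9e-14).

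Both genes were thus near the lower limit of detection in eUB and abundant in either mesenchyme. Col3a1, a fibrillar collagen, was at 1.86 to 5.52 in eUB, 231 to 397 in iNP and 2168 to 2269 in iSP. Meox1, a paraxial and nephrogenic homeobox gene (0.106 to 0.472 in eUB, 112 to 180 in the mesenchymes), Foxc2, a mesodermal forkhead factor (0.390 to 0.745 against 85.8 to 185), and Hoxa10 (0.426 to 0.992 against 110 to 175) showed the same separation. Des, the muscle intermediate filament desmin, was at 0.106 to 0.223 in eUB and 78.2 to 224 in the mesenchymes. Shisa3, an inhibitor of WNT and FGF receptors, was at 0.0355 to 0.520 against 106 to 172. The imprinted genes Grb10 and Cdkn1c complete the list and are described below. In bulk libraries, fewer cells expressing a gene and less RNA of it per cell cannot be told apart.

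Every tested member of the epithelial adhesion and keratin lists was higher in eUB than in both mesenchymes, beside 23.1% of all tested genes. The list of junction and polarity genes, Epcam of the sort included, had 23 of 23 tested members higher, with median differences of 3.61 from iNP and 4.90 from iSP, where the medians over all tested genes were -0.01 and -0.03. After Cldn4, Cldn3 and Cdh16, the largest were Cdh1, which encodes E-cadherin (569 to 658 in eUB, 10.7 to 15.1 in iNP, 3.45 to 6.57 in iSP), Cldn7 and Ocln (differences of 5.38 and 5.35 from iNP, 6.61 and 5.93 from iSP). Keratins, the intermediate filaments of epithelia, were higher in 5 of 5 tested members, and the other 4 listed (Krt14, Krt15, Krt20 and Krt80) were too low to be tested. Krt8 was at 522, 718, 718 and 824 in eUB, 9.95 to 12.7 in iNP and 1.01 to 2.17 in iSP, and its partner Krt18 differed by 5.62 and 7.66.

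Regulators of epithelial state were higher in 15 of 16 tested members, beside 23.1% of all tested genes, with median differences of 3.78 and 4.43. Besides Esrp1, Grhl2, a grainyhead factor that activates junction genes, differed by 6.06 and 6.45, and St14, the membrane protease matriptase, by 5.96 and 7.02. Grhl2 was at 86.1 in eUB-1 and 118 to 129 in the other eUB libraries, with 0.820 as its highest mesenchyme value. Grhl1, a second grainyhead gene, was the exception, with means of 2.23 in eUB, 6.25 in iNP and 3.08 in iSP and a difference of -0.29 from iSP that was not called (limma adjusted p = 0.25).

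The 250 bases before the start of a few of these genes are printed because repressors of the ZEB and SNAI families, which were low in eUB (below), read CAGGTG or CACCTG in epithelial promoters. Shown are the 4 genes with the largest differences among list members with such letters and no annotated exon in the window, and the largest without the letters, from RefSeq on GRCm38.p6, 5′ to 3′ on the gene's strand, with each match in capitals. Cldn4 (chr5:134946935-134947184, minus strand) had 1 match starting 14 bases before the start, Epcam (chr17:87635729-87635978, plus strand) had matches 187 and 19 bases before it, Tjp3, a tight junction scaffold (chr10:81291582-81291831, minus strand), 1 at 108 bases, Grhl3, a grainyhead gene (chr4:135573633-135573882, minus strand), 1 at 19 bases, and Cldn3 (chr5:134985964-134986213, plus strand) none.
Cldn4: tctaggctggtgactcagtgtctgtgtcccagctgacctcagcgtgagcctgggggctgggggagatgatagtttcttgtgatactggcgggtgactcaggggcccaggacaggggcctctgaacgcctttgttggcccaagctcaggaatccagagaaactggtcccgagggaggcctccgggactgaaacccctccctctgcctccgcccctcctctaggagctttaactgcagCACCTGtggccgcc
Epcam: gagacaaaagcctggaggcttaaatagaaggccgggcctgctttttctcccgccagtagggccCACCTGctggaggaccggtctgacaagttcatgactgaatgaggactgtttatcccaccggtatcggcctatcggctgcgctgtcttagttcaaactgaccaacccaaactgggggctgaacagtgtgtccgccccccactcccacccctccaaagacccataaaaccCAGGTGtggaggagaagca
Tjp3: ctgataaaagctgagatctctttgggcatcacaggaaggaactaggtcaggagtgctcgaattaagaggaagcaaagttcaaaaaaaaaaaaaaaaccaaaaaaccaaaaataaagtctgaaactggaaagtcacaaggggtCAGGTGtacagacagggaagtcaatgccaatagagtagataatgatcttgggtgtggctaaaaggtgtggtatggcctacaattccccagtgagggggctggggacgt
Grhl3: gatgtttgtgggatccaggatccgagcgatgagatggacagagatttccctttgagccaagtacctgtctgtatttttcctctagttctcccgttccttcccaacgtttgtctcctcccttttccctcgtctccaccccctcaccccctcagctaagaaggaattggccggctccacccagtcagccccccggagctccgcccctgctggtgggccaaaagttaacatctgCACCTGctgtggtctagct
Cldn3: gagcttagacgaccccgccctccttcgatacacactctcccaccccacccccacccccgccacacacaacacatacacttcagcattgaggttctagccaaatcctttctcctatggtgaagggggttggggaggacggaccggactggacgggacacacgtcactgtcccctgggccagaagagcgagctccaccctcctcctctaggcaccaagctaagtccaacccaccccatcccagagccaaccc
Over all 32851 mouse promoter windows of this length, 17.2% held CAGGTG or CACCTG on either strand. Windows were available for 24 of the 44 tested epithelial list members, too few for their share to be compared with that figure. Of their 29 windows, 19 held the letters, and some windows overlap (those of Crb3 and those of Ocln). The letters AACCGGTT, a grainyhead motif, were in none of those 29 windows and in 0.116% of all windows. With letters so rare, 29 windows are too few to read anything from their absence. Letters in a window are a description and not evidence of binding. Tjp3 itself was at 37.5 to 51.5 in eUB, 2.60 to 3.57 in iNP and 0.290 to 0.788 in iSP, and Grhl3 at 4.83 to 7.56 in eUB and at most 0.853 in the mesenchymes.

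**Figure D2:**
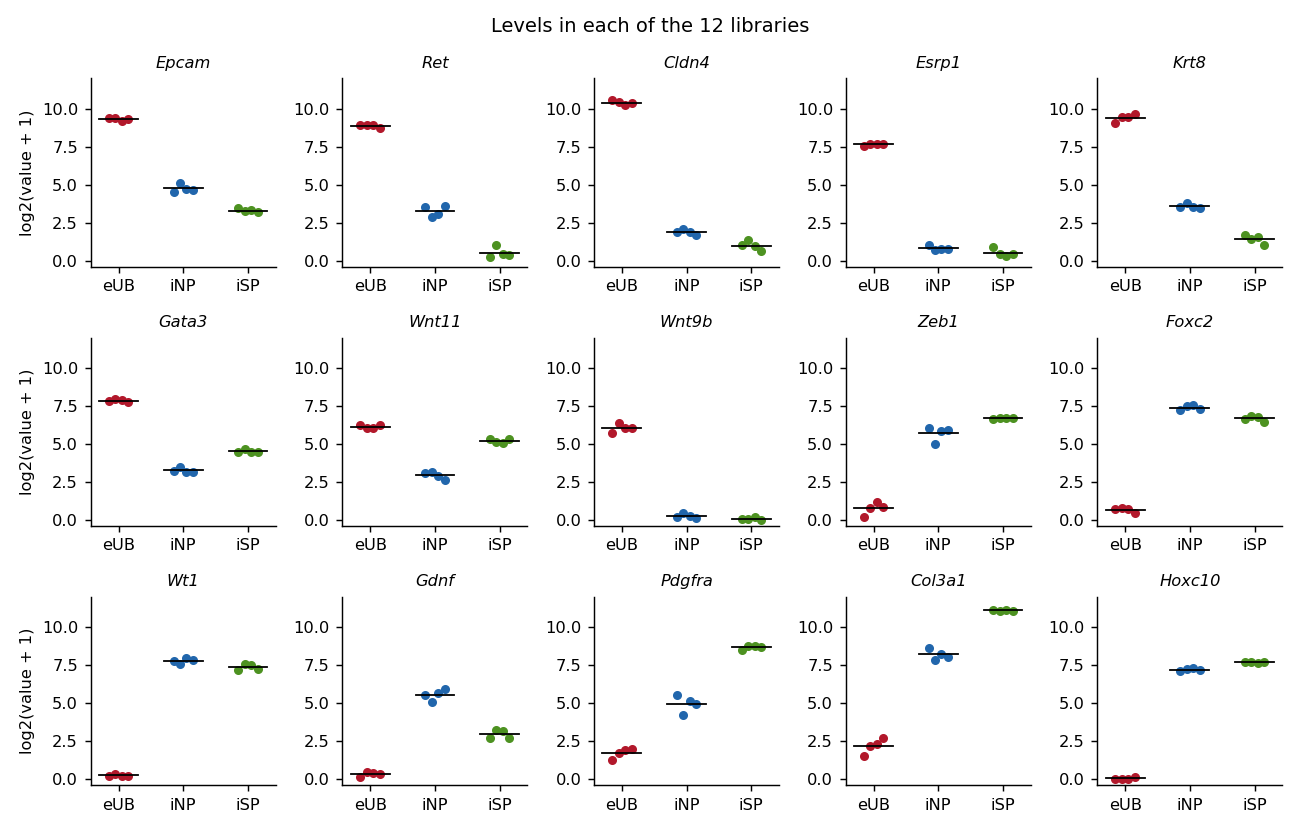
Level of 15 genes as log2(value + 1) in each of the 12 libraries (points) with the group mean (bar), for eUB, iNP and iSP. Epcam, Ret, Cldn4, Esrp1, Krt8, Gata3, Wnt11 and Wnt9b were highest in eUB and the other 7 genes lowest there, and no eUB point overlaps a mesenchyme point.

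Transcription factors of the nephric duct and bud were higher in eUB than in both mesenchymes for 10 of 12 tested members, beside 23.1% of all tested genes, with median differences of 2.25 from iNP and 3.34 from iSP. Tfcp2l1, a factor of duct epithelium, was at 82.1, 101, 96.8 and 69.4 in eUB and at most 1.67 in the mesenchymes. Gata3, which the nephric duct needs to form, was at 211 to 244 in eUB, 7.67 to 10.2 in iNP and 20.8 to 23.8 in iSP. Sim1, a duct and bud factor, was at 39.5 to 61.8, 2.59 to 6.401 and 0.824 to 1.48.

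These 3 genes did not overlap between eUB and the mesenchymes. The 2 exceptions were genes that iNP also carried. Pax8, a renal lineage factor, was at 58.4 to 83.7 in eUB, 143 to 228 in iNP and 6.29 to 14.4 in iSP, so it was lower than in iNP (-1.33, limma adjusted p = 2.1e-04) and higher than in iSP (2.62, adjusted p = 3.1e-07). Tfap2b followed the same order at lower levels, with differences of -0.52 and 1.87. Pax2, a relative of Pax8, was higher in eUB than in both, but by 0.86 (SE 0.25) from iNP and 4.97 (SE 0.25) from iSP.

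Ureteric tip genes were higher in 12 of 14 tested members, beside 23.1% of all tested genes, with median differences of 2.39 and 2.61, and in 9 of 11, with medians of 2.05 and 2.39, without Ret, Sox8 and Sox9. Apart from the sort genes, Gfra1, the GDNF co-receptor, was at 409 to 473 in eUB, 43.2 to 84.8 in iNP and 8.41 to 10.6 in iSP. Wnt11, a tip WNT ligand, was at 65.4 to 73.6 in eUB, 5.23 to 7.87 in iNP and 32.1 to 39.4 in iSP, with a difference of 0.93 (SE 0.12) from iSP. The 2 members not called were Etv4 and Etv5, transcription factors induced by RET and FGF signals. Etv4 was at 161 to 202 in eUB and 142 to 167 in iNP, a difference of 0.16 (SE 0.09, limma adjusted p = 0.14) with overlapping libraries, and at 30.1 to 36.3 in iSP. Etv5 differed by 0.31 (SE 0.14, limma adjusted p = 0.073) from iNP and by 2.34 from iSP.

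Of 15 listed trunk, collecting duct and urothelium genes, 13 had values and 8 passed the filter and were tested. Of these 8, 6 were higher and 1 lower in eUB, beside 23.1% of all tested genes in each direction. Wnt7b, a ligand of the bud trunk, was at 29.6 to 38.3 in eUB and at most 0.820 in the mesenchymes, and Calb1, the calcium-binding protein of collecting duct, at 31.9 to 46.9 against 2.78 to 5.14. Foxa1 and Scnn1b differed by 2.22 and 2.14 from iNP. Gata2 was lower in eUB, at 19.97 to 30.3 against 32.8 to 79.7. The urothelial gene Upk1a was tested and not called, with differences of -0.87 from iNP and -0.33 from iSP. Upk1b and Upk2 stayed under the value of 1 in means of all 3 groups and were not tested.

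The converse held for mesenchymal transcription factors, where 12 of 12 tested members were lower in eUB, beside 23.1% of all tested genes, with median differences of -3.15 from iNP and -4.07 from iSP. In 11 of them the eUB libraries lay below all 8 others. Zeb1, a repressor of epithelial genes, was at 0.149, 0.745, 1.29 and 0.814 in eUB, at 64.7, 30.7, 57.5 and 59.1 in iNP and at 98.3, 102, 101 and 105 in iSP. Snai2, a repressor of the SNAI family, was at 1.35 to 1.71 in eUB, 21.3 to 22.6 in iNP and 70.3 to 77.0 in iSP. Tcf21, a stromal and nephrogenic basic helix-loop-helix factor, was listed at 0 in all 4 eUB libraries, where 3 reads would give 0.106 to 0.223, and at 15.5 to 43.2 in the mesenchymes.

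Matrix and adhesion genes of mesenchyme moved less uniformly, with 17 of 25 tested members lower in eUB, beside 23.1% of all tested genes, none higher, and median differences of -1.19 and -1.85. After Col3a1, Col1a1 (differences of -4.37 and -7.10), Cdh11, a mesenchymal cadherin (-4.22 and -4.38), and Pdgfrb, the receptor of pericytes and stroma (-3.58 and -4.80), were lower. Cdh2, which encodes N-cadherin, was among the 8 members not called, at 139 to 177 in eUB, 120 to 233 in iNP and 150 to 163 in iSP. So was Fn1, fibronectin, at 499 to 739 in eUB, 291 to 1094 in iNP and 1436 to 1596 in iSP, where the low iNP value was that of iNP-2.

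Of 21 tested basement membrane genes, 10 were higher and 3 lower in eUB, the lower share below the 23.1% of all tested genes. Npnt, nephronectin, the bud ligand of ITGA8, was at 215 to 279 in eUB, 5.57 to 11.9 in iNP and 2.23 to 3.53 in iSP. Itgb4 and Itga3, subunits of laminin-binding integrins, differed by 3.78 and 2.01 from iNP and by 4.74 and 4.81 from iSP, and Lama5, a laminin chain of mature epithelia, by 2.39 and 4.65. The 3 lower members were Nid1 (2.55 to 2.91 in eUB, 39.97 to 186 in the mesenchymes) and Nid2, the nidogens that link laminin to collagen IV, and Lama4, a laminin chain of vessels and mesenchyme. Of the collagen IV genes, Col4a1 and Col4a2 were higher than in iSP (0.93 and 0.86) with differences from iNP of -0.09 and -0.34 that were not called.

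Nephron progenitor genes were lower in 14 of 17 tested members, beside 23.1% of all tested genes, with median differences of -4.85 from iNP and -2.61 from iSP, and stromal progenitor genes in 16 of 18, with -3.02 and -3.93. Without the sort genes Itga8 and Pdgfra these were 13 of 16 and 15 of 17. After Wt1 and Meox1, the members with the largest smaller difference were Hoxd11, Hoxa11 and Osr1, an early factor of intermediate mesoderm (differences from iNP of -6.06, -5.43 and -5.35). Uncx and Six2, both progenitor homeobox genes, differed by -7.40 and -5.71 from iNP and by -3.34 and -2.42 from iSP. On the stromal side they were Meis1 (-5.70 and -6.51), Cxcl12, a chemokine (-5.22 and -5.70), and the imprinted Dlk1 (-4.88 and -5.66). One member of each list went the other way, and both were chosen for mention after their values were seen. Cited1, a marker of uncommitted nephron progenitors, was at 12.7 to 23.3 in eUB, 1.66 to 4.26 in iNP and 2.01 to 2.81 in iSP. Smoc2, a matricellular stromal gene, was at 31.3 to 42.5 in eUB and 4.05 to 6.49 in the mesenchymes. Foxd1, the factor that defines kidney stroma in the embryo, was at 14.99 to 29.5 in eUB, 6.05 to 8.86 in iNP and 11.4 to 19.2 in iSP, and its difference of 0.36 from iSP was not called (limma adjusted p = 0.16).

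**Figure D3:**
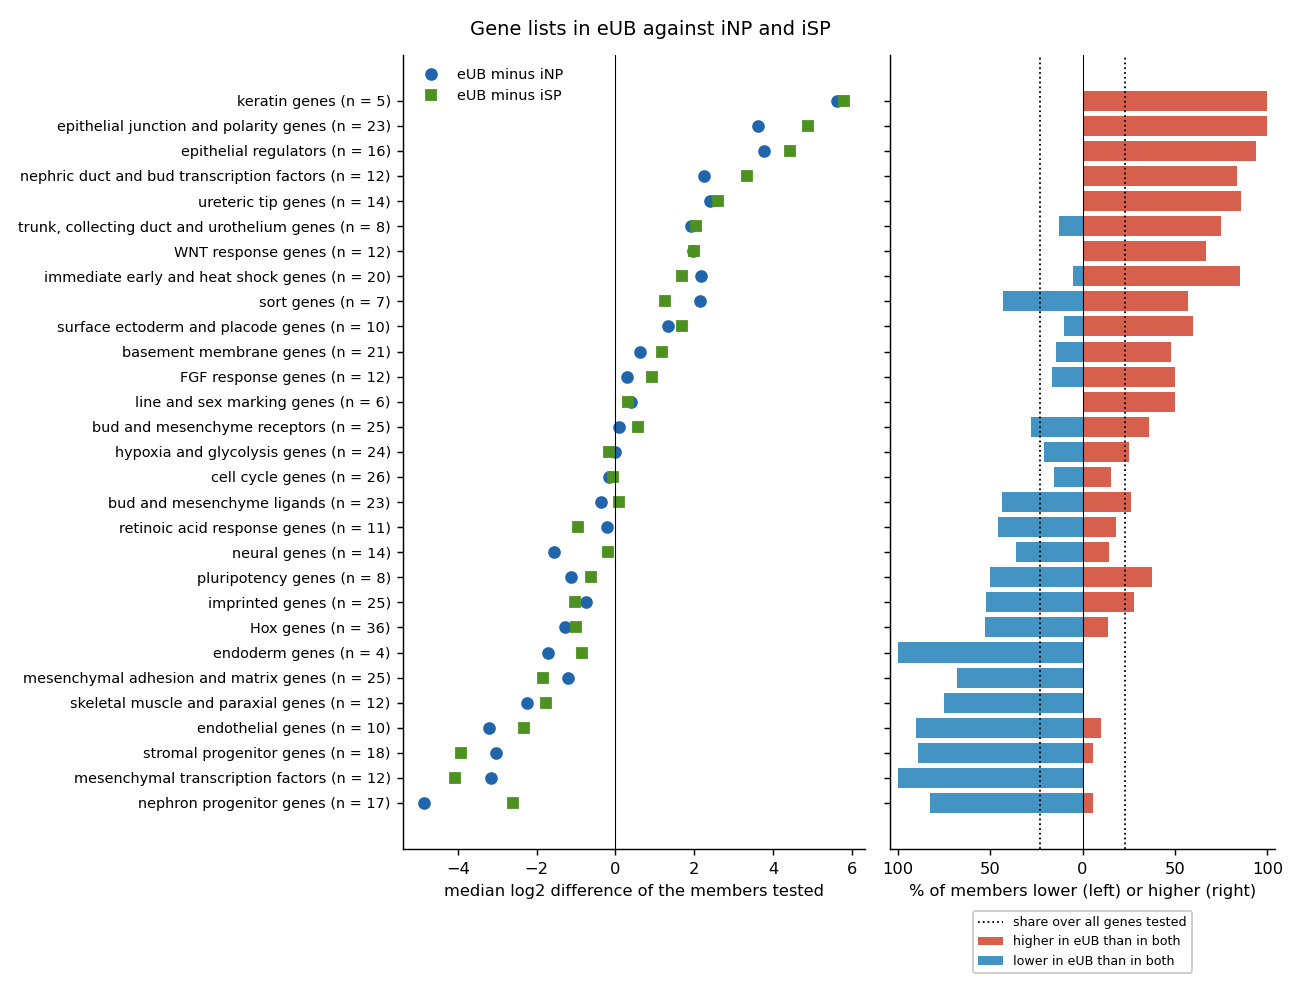
Gene lists with at least 4 tested members, n in brackets. The left panel gives the median log2 difference of eUB from iNP (circles) and iSP (squares), and the right panel the share of members called higher (red) or lower (blue) than in both, with dotted lines at the share over all tested genes, 23.1% on each side. Keratin, junction and regulator lists lie at the top and nephron progenitor, mesenchymal factor and stromal lists at the bottom.

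Bud and mesenchyme signal to each other through secreted ligands and their receptors. Of 23 tested ligands, 6 were higher and 10 lower in eUB, the higher share near the 23.1% of all tested genes. The higher ones included Wnt9b, the bud signal that induces nephron progenitors (52.3 to 82.3 in eUB, at most 0.328 in the mesenchymes), Wnt7b, Npnt, and Kitl, the ligand of KIT (119 to 147 against 7.12 to 13.3). Gdnf was at 0.0743, 0.390, 0.301 and 0.248 in eUB, at 45.5, 32.9, 50.1 and 59.9 in iNP and at 5.41, 8.13, 7.83 and 5.44 in iSP. The 3 groups did not overlap in Gdnf. Of 25 tested receptors, Ret and Itga8 of the sort included, 9 were higher and 7 lower, the lower share near that 23.1%. Fgfr4 differed by 3.72 and 4.50 and the SCF receptor Kit by 2.26 and 2.73, while Fgfr3 (-3.80 and -3.01) and the WNT receptor Fzd2 (-2.52 and -3.36) were lower.

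Genes that respond to canonical WNT signals were higher in 8 of 12 tested members, beside 23.1% of all tested genes, none lower, with median differences of 1.97 and 1.98. Sp5, a direct WNT target, was at 135 to 173 in eUB, 2.72 to 5.74 in iNP and 0.169 to 0.554 in iSP. Rnf43 and Lgr5, a WNT receptor ligase and the R-spondin receptor, differed by 4.07 and 3.25 from iNP and by 4.60 and 4.19 from iSP, and Axin2, the feedback inhibitor, by 2.52 and 2.09. The culture media differed between the groups in the agonist steps, so medium and cell type cannot be told apart for these genes. Of 12 tested FGF response genes, 6 were higher and 2 lower, the lower share below the 23.1% of all tested genes. Dusp6, a phosphatase induced by ERK, differed by 1.09 and 1.62. Of 11 tested retinoic acid genes, 2 were higher (Aldh1a3 and Aldh1a1), a share below that 23.1%, and 5 lower. The lower ones included Aldh1a2, the synthesis enzyme of mesenchyme (-4.40 and -3.72), and the retinoic acid binding protein Crabp1 (-5.38 and -7.50).

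Hox genes, which mark position along the body axis, were lower in 19 and higher in 5 of 36 tested members. Lower members included Hoxc10, Hoxa10, Hoxd11, Hoxa11 and Hoxc9. Hoxd11 was at 0, 0, 0 and 0.0354 in eUB and at 47.7 to 70.9 in the mesenchymes, and Hoxa11 at no more than 0.0859 against 39.8 to 69.4. The 5 higher members were Hoxb4, Hoxb6, Hoxb7, Hoxb8 and Hoxc5, with differences from iNP of 0.48 to 1.32 and from iSP of 1.07 to 2.91. Hoxb4 was at 52.9 to 67.0 in eUB, 21.9 to 25.8 in iNP and 7.73 to 8.88 in iSP. Hoxb7, whose promoter is used to drive bud transgenes, was at 65.9 to 78.3, 33.2 to 51.7 and 12.8 to 15.7. The share of higher members was below the 23.1% of all tested genes. Of the Hoxb genes, Hoxb1 went the other way and was lower in eUB (0.223 to 0.319, against 15.4 to 23.6 in iNP and 0.946 to 1.43 in iSP).

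Stress-induced genes moved with the comparison. Of 20 tested immediate early and heat shock genes, 17 were higher and 1 lower in eUB, beside 23.1% of all tested genes in each direction, with median differences of 2.18 and 1.69. Their summed value was 7394 to 10830 in eUB, 1894 to 2114 in iNP and 2612 to 3061 in iSP. Besides Atf3, Hspa1a, an inducible chaperone, was at 16.9, 68.4, 101 and 162 in eUB and at most 1.29 in the mesenchymes, and Klf6 at 602 to 762 against 18.1 to 29.3. Hspa1a and Hspa1b are near-identical copies, and reads may be divided between them. At E11.5, UB was called higher than both NP and SP for 9 of the 20 and lower for 0. The shares over all genes tested there were 17.1% and 17.2%. By limma interaction, the ES-derived difference was called higher than the E11.5 one for 16 of the 20 and lower for 2. That interaction was called higher for 24.1% and lower for 25.5% of all genes tested in it. The E11.5 sums were 4481 to 5798 in UB, 2370 to 2934 in NP and 4883 to 5547 in SP. Cell cycle genes showed 4 higher and 4 lower of 26 tested, and hypoxia and glycolysis genes 6 and 5 of 24, shares near or below the 23.1% of all tested genes in either direction. Both splits depend on scaling and on the libraries used, with 3 higher and 10 lower cell cycle genes and 5 higher and 10 lower hypoxia genes under upper-quartile scaling, and 5 and 8, and 7 and 9, without eUB-1 and iNP-2.

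The markers of other cell types differed from list to list. Of 10 tested endothelial genes, Pecam1 of the sort included, 9 were lower in eUB. The share called over all tested genes, for this and the lists that follow, was 23.1% in each direction. Their summed value was 12.5 to 17.7 in eUB, 87.0 to 151 in iNP and 56.9 to 85.3 in iSP, and Cdh5, the endothelial cadherin, was listed at 0 in all 4 eUB libraries and at 7.58 to 12.8 in the mesenchymes. Tek, a vascular receptor, was higher, at 8.24 to 11.6 in eUB, 4.62 to 7.70 in iNP and 2.696 to 4.70 in iSP. Macrophage genes summed to at most 5.59 and erythroid genes to at most 0.902 in any of the 12 libraries, with C1qa, C1qc and Tyrobp at 0 in every one. Skeletal muscle and paraxial genes were lower in 9 of 12 tested members (sums of 5.32 to 6.68 in eUB, 301 to 424 in the mesenchymes) and endoderm genes in 4 of 4 tested of 12 listed. Of 8 tested pluripotency genes 4 were lower, Lin28a (1.03 to 1.74 in eUB, 18.1 to 93.5 in the mesenchymes), Dppa5a, Pou5f1 and Esrrb. The 3 higher ones were Tfcp2l1, Klf4 and Zfp42, of which Tfcp2l1 is also a duct gene. The summed value of the pluripotency list was 204 to 253 in eUB against 37.7 to 149 in the mesenchymes. It was 204 to 252 in E11.5 UB, so the eUB sum was no higher than that of the sorted bud.

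Of 10 tested surface ectoderm and placode genes 6 were higher and 1 lower, beside 23.1% of all tested genes in each direction, with sums of 176 to 204 in eUB, 45.4 to 68.0 in the mesenchymes and 162 to 182 in E11.5 UB. Dlx5, an otic and branchial homeobox gene, was at 40.3 to 45.0 in eUB and at most 0.469 in the mesenchymes. Oc90, an otoconial protein of the inner ear, was at 12.7, 6.35, 8.12 and 9.99 in eUB and listed at 0 in all 8 mesenchyme libraries, and it was at 0 in all 4 libraries of E11.5 UB as well. Of 14 tested neural genes 2 were higher, Lmx1a, a roof plate and otic factor (125 to 150 in eUB, 4.92 to 5.51 in iNP, at most 0.259 in iSP), and Sox10, a neural crest and otic factor (14.1 to 18.9, 9.31 to 13.3 and at most 0.338), and 5 were lower, led by Stmn2 (-4.35 and -5.90). The share of neural genes that were higher lay below the 23.1% of all tested genes, and the sum of the list was 190 to 217 in eUB, 160 to 199 in iNP and 277 to 335 in iSP. The neural counts depend on the tool, with 1 higher and 7 lower by edgeR and 2 and 8 by DESeq2.

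Imprinted genes, which are expressed from 1 parental allele, showed 7 higher members of 25 tested, near the 23.1% of all tested genes, and 13 lower ones, and several were near 0 either in eUB or in both mesenchymes. H19, a maternally expressed noncoding RNA (chromosome 7, 142575529 to 142578143), was at 2009, 2009, 1975 and 2024 in eUB, at 29.5, 17.6, 23.0 and 30.3 in iNP and at 12.9, 15.8, 29.8 and 22.3 in iSP. In E11.5 UB, NP and SP it was at 1920 to 4007, so the mesenchymes and not eUB lay outside the range of the sorted kidney cells. Plagl1 (at most 1.03 in the mesenchymes, 91.0 to 409 in the E11.5 libraries), Nnat (175 to 252 in eUB, 1.57 to 5.03 in the mesenchymes, 156 to 674 at E11.5) and Peg13 (28.3 to 34.4 in eUB, at most 0.251, 23.6 to 55.9) showed the same arrangement.

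Grb10, Cdkn1c and Igf2r were lowest in eUB. Grb10, a growth receptor adaptor (chromosome 11, 11930508 to 12038683), was at 0.446, 0.781, 1.25 and 0.992 in eUB, 113 to 181 in iNP, 107 to 157 in iSP and 927 to 2280 at E11.5, so both eUB and the mesenchymes lay below the E11.5 range. Cdkn1c, a cyclin-dependent kinase inhibitor, was at 11.2 to 16.3 in eUB, 905 to 1918 in the mesenchymes and 255 to 1540 at E11.5. Igf2r, the receptor that clears IGF2, was at 18.2 to 28.5 in eUB, 403 to 920 in the mesenchymes and 245 to 692 at E11.5. For these 3 genes eUB lay below every iNP, iSP and E11.5 library. Igf2 was lower in eUB too (535 to 871, against 6269 to 10242 in the mesenchymes and 1148 to 4051 at E11.5), with eUB below and the mesenchymes above the E11.5 range.

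Hprt, an X-linked purine salvage gene with no imprint (chromosome X, 52988137 to 53021659), was chosen as a mark of the line. It was at 49.3, 41.5, 43.7 and 48.8 in eUB, at most 0.525 in iNP, at most 0.702 in iSP and at 23.1 to 54.0 at E11.5. Of the 6 tested genes chosen to mark a line or its sex, Hprt, Kdm5d and Eif2s3y were higher in eUB, beside 23.1% of all tested genes, and none was lower. Hprt and Kdm5d did not overlap between eUB and the mesenchymes, and Eif2s3y did. Since eUB and the mesenchymes came from different lines, line and cell type cannot be told apart for these genes. Within the E11.5 cells, all of 1 mouse stock, the UB differences of H19, Plagl1, Nnat, Peg13, Grb10, Igf2r, Cdkn1c, Igf2 and Hprt from NP and SP lay between -1.84 and 1.28, and each differed from the ES-derived difference (limma interaction, adjusted p between 3.7e-18 and 7.7e-11). These genes were chosen with their ES-derived values known, and the interaction uses those values again, so its p-values are no separate support. Of the 25 tested imprinted genes the interaction was called higher for 9 and lower for 10. Over all genes tested in it, the shares were 24.1% and 25.5%.

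**Figure D4:**
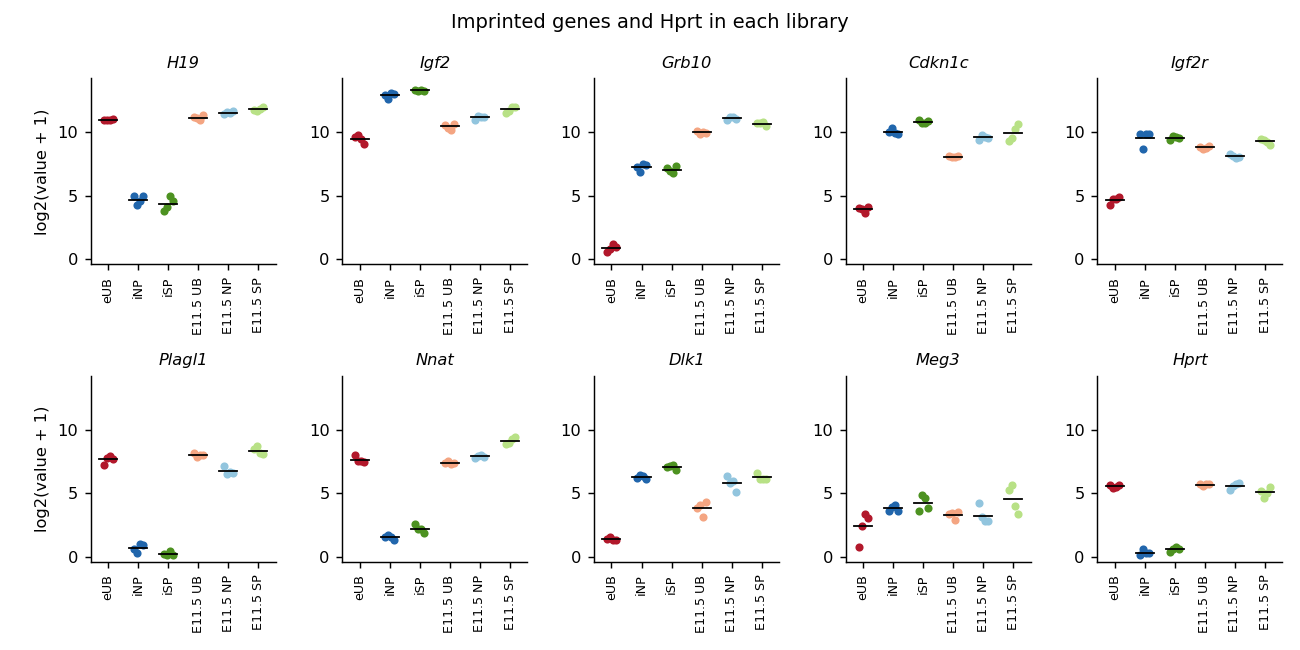
Level of 9 imprinted genes and Hprt as log2(value + 1) in each library (points) with the group mean (bar), for eUB, iNP, iSP and the E11.5 UB, NP and SP. H19, Plagl1, Nnat and Hprt are low in iNP and iSP only, and Grb10, Cdkn1c and Igf2r are lowest in eUB.

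The ex-fetu cells offered the same contrast within 1 stock. In the E11.5 libraries UB was called higher than both NP and SP for 17.1% and lower for 17.2% of 14500 tested genes. Of the 3401 genes higher in eUB, 1445 (42.5%) were also called higher in E11.5 UB, 168 were called lower, 1591 were not called and 197 were not tested there. Of the 3404 lower genes, 1204 (35.4%) were called lower, 91 higher, 1819 were not called and 290 were not tested. With the E12.5 libraries, where the background was 12.3% and 7.53%, 1196 and 689 genes were called in the same direction and 45 and 59 in the opposite one. The age labels of the UB samples disagree between title and source, and the titles were used. When the UB libraries titled E12.5 were set against E11.5 NP and SP, 1397 higher and 897 lower members were called in the same direction and 272 and 181 in the opposite one, where 18.8% and 16.0% of all tested genes were called higher and lower. Without E12.5_UB-1 the E12.5 counts in the same direction were 1280 and 929, where 13.5% and 9.91% were called. Across the 13767 genes tested at both, the eUB and the E11.5 UB difference from the mean of the mesenchymes correlated with r = 0.745, a description over genes that are not independent replicates.

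The difference between the ES-derived and the E11.5 contrast was itself tested with an interaction term in limma. It was called for 7743 of 15611 genes (49.6%, 24.1% higher and 25.5% lower in the ES-derived contrast), and with the E12.5 libraries for 6159 of 15644 (39.4%, 17.6% higher and 21.7% lower). Among junction and polarity genes it was called lower for 10 and higher for 3 of 23, among epithelial regulators lower for 8 and higher for 0 of 16, and among keratins lower for 1 and higher for 2 of 5. Cdh1 had an interaction of -1.01 (limma adjusted p = 0.0073), while those of Cldn3, Esrp1, Grhl2 and Cdh16, at 0.33, -0.02, 0.45 and -0.09, were not called (limma adjusted p = 0.32, 0.96, 0.11 and 0.83). It was lower for 6 and higher for 1 of 12 duct and bud transcription factors and lower for 7 of 8 trunk and collecting duct genes. Calb1 (41.4 on average in eUB and 608 in E11.5 UB) had an interaction of -4.06 (SE 0.33) and Tfap2b (4.21 and 101) of -5.00 (SE 0.33). Wnt9b was at 66.7 on average in eUB and 308 in E11.5 UB, with an interaction of -1.05.

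Of the members called in the ES-derived contrast, the 5 protein-coding genes with the largest positive interaction were Nnat (6.84), Plagl1 (6.69), Sp5 (6.14), Lmx1a (5.54) and Atf3 (5.32), and those with the largest negative one were Stab1 (-6.21), Igf1 (-5.77), Grb10 (-5.38), Igf2r (-4.99) and Cdkn1c (-4.81), with limma adjusted p between 3.7e-18 and 1.1e-08. Sp5 and Lmx1a were low in all E11.5 groups (0.914 to 11.5 and at most 0.755) and high in eUB. Igf1, a growth factor of mesenchyme, was at 0.172 to 0.520 in eUB, 24.003 to 38.8 in iNP, 302 to 384 in iSP and 1.26 to 22.4 at E11.5. Stab1, a scavenger receptor of macrophages and sinusoidal vessels, was at 0.594 to 1.202 in eUB, 9.87 to 25.5 in the mesenchymes and 27.9 to 50.8 in E11.5 UB. Macrophage genes summed to 82.3 to 140.0 in E11.5 UB and 3.90 to 9.14 in E11.5 NP and SP, and their part in the Stab1 value was not tested. Foxd1 and Cdh2, not called in the ES-derived contrast, had interactions of 6.34 and 4.01. Foxd1 was at 2.08 to 2.81 and Cdh2 at 9.91 to 13.3 in E11.5 UB, below the eUB ranges given above. Their differences of eUB from iNP and iSP were 1.35 and 0.36 for Foxd1 and -0.28 and 0.02 for Cdh2. The interaction also holds the levels of E11.5 NP and SP beside those of iNP and iSP. The parts of eUB and of the mesenchymes in it were not tested apart.

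**Figure D5:**
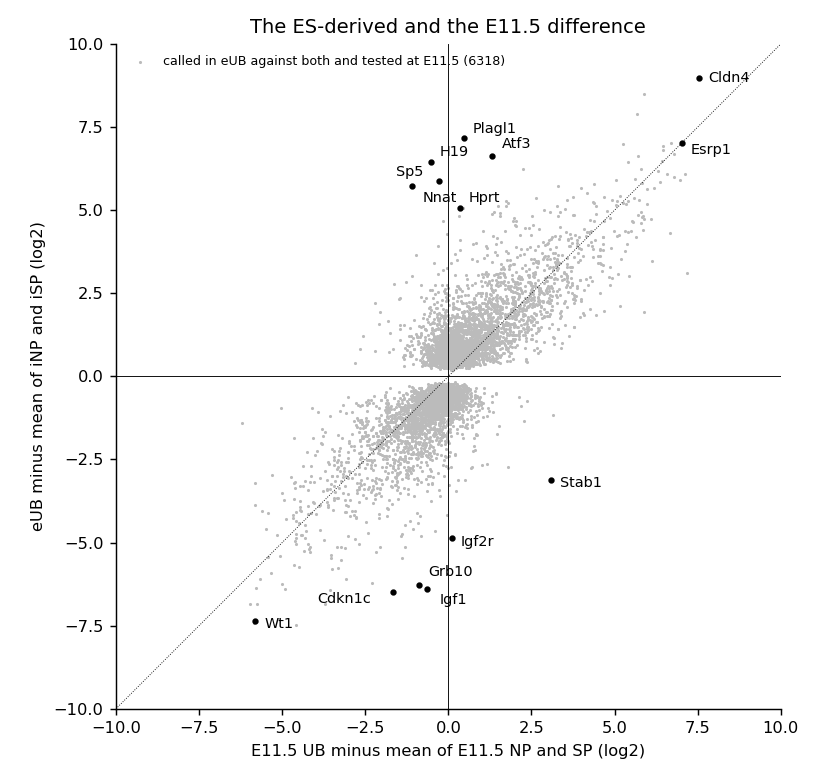
E11.5 UB minus the mean of E11.5 NP and SP (x axis) against eUB minus the mean of iNP and iSP (y axis), log2(value + 1), for the 6318 called genes tested in both. Cldn4 and Esrp1 lie near the upper end and Wt1 near the lower end of the dotted line of equal differences, while H19, Plagl1, Nnat, Sp5, Atf3 and Hprt lie far above that line and Igf1, Grb10, Cdkn1c, Igf2r and Stab1 far below it.

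At the threshold the members could not be told from their neighbours. C1galt1c1, a chaperone of mucin-type glycosylation, was just inside (10.1 to 12.6 in eUB, 7.42 to 11.6 in iNP, 5.84 to 7.30 in iSP), as was Pcdhga10, a clustered protocadherin whose exons are shared with its neighbours (1.41 to 2.06, 1.31 to 4.13 and 5.37 to 6.24). Pfdn6, a prefoldin subunit, was just outside (30.0 to 47.6, 51.3 to 83.8 and 43.0 to 49.2), as was Arfgef2, a vesicle trafficking factor (47.3 to 97.2, 31.9 to 61.8 and 44.1 to 58.0). In all 4 genes eUB overlapped at least 1 mesenchyme.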

How the data were processed

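RNA from sorted cells was sequenced with a stranded mRNA kit. Per the labels the authors' processing used Cutadapt and STAR, with the genome written as GRCh38, although the table holds mouse Ensembl identifiers. The counting program, its strand setting and the annotation release are not given in the sources used here, so antisense and near-identical genes are uncertain. The deposited signal values are counts that the authors normalised with edgeR to CPM. Every value was a whole multiple of the value of 1 read of its library (tolerance 0.01 reads), so read counts were recovered for the count-based alternatives. The columns that hold the authors' own comparisons were not used.

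Genes whose value reached 1 in 4 or more of the 12 libraries were tested with limma 3.58.1 (R 4.3.3) on log2(value + 1), with all 3 groups in 1 fit and Benjamini-Hochberg adjustment. A member passed 0.05 against both groups with the same sign. The interaction used the 24 ES-derived and E11.5 libraries. The members and lists were chosen with earlier results of these data known. Named were the 10 largest non-overlapping protein-coding genes in each direction, list members in order of size with the exceptions to a list (chosen after their values were seen; a few list members are not reported here by name), the 5 largest interactions in each direction and the 2 genes on either side of the threshold. On simulated data for eUB against both groups (14733 genes), limma called 16.4%, 94.0% and 100% of genes changed by 0.5, 1 and 2 log2 units and 0% of unchanged genes. The simulation changed only 200 genes and held no displaced library such as eUB-1 or iNP-2. Its shares therefore do not carry over to these data, where 46.2% of tested genes were called. Alternatives used edgeR 4.0.16, DESeq2 1.42.0, other scalings, filters, pseudocounts and left-out libraries. Symbols, positions and transcript lengths came from GENCODE on GRCm38, which held 22649 of the 22761 identifiers. Intervals from reads cover counting error only.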

Additional observations from a re-analysis of the deposited data

Results flagged for a closer look

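Within groups of 4, some libraries lay further from the others than Dixon's 95% critical value for the gap divided by the range. Chance flags about 1 in 20 groups, and 120 were examined. In eUB-1, Nnat was at 252 against 175 to 184 in the other eUB libraries (ratio 0.881) and Pfdn6 at 47.6 against 30.0 to 31.6 (0.909). In iNP-2, Igf2r was at 403 against 895 to 920 (0.953) and Itga8 at 75.5 against 210 to 230.1 (0.869). These are the 2 libraries in which many genes moved with transcript length. Ret was lower in eUB-4, at 419.9 against 485 to 498 (0.838), and higher in iSP-2, at 1.07 against 0.193 to 0.332 (0.842). Lmx1a in iNP-1 was at 4.92 against 5.42 to 5.51 (0.845). A few reads made the gap for Wt1 in eUB-2, at 0.248 against 0.129 to 0.149 (0.835). Hoxc10 was at 0.0708 in eUB-4 and Aldh1a1 at 0.0358 in iSP-2 while the other libraries of the group were listed at 0 (ratio 1 for each), all under the value of 3 reads.

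The eUB difference from the mesenchymes differed from that of E11.5 UB, by the limma interaction on the log2(value + 1) scale, for Nnat by 6.84, Plagl1 by 6.69, Sp5 by 6.14, Lmx1a by 5.54 and Atf3 by 5.32. It was lower for Stab1 (-6.21), Igf1 (-5.77), Grb10 (-5.38), Igf2r (-4.99) and Cdkn1c (-4.81).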

How the results depend on the processing

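The counts over all tested genes in the ES-derived contrasts and the interaction stayed within 1.5 times their main value under every alternative tried except limma treat, which tests against a difference of at most 1 log2 unit. Under it 1978 genes were called against iNP, 2517 against iSP and 1587 in both (965 higher, 622 lower), with 195 list members called in place of 305. Of the 312 called genes on a list or named, none reversed under any setting, and 35 lost the call under some setting other than treat. Upper-quartile scaling moved the median of all genes to -0.198 against iNP and -0.144 against iSP and the split to 2644 higher and 4476 lower (37.1% higher, against 50.0%). edgeR on recovered reads called 3468 higher and 3327 lower, and DESeq2 3619 and 3487. Leaving out 1 library at a time gave 6117 to 7589 genes called in both, 7794 to 9637 against iNP, 8027 to 9905 against iSP, 7028 to 8543 interactions and 295 to 313 list members. Leaving out eUB-1 and iNP-2 together, added after seeing the data, kept 6707 of the 6805 calls. A replicate block gave 3405 higher and 3381 lower genes and turned no call around, with 6642 of the 6805 calls kept. The numbers were not treated as pairs, since not every same-numbered pair deviated together. The deviations correlated between -0.382 and 0.499 for eUB and iNP, between 0.0636 and 0.677 for eUB and iSP, and between -0.287 and 0.291 for iNP and iSP. Without E12.5_UB-1, also left out after seeing the data, 1280 higher and 929 lower members were called in the same direction in the E12.5 UB, against 1196 and 689 with it (13.5% and 9.91% of all tested genes were called, against 12.3% and 7.53%). The lower members called in the same direction in E11.5 UB, 1204, exceeded the 689 at E12.5 by more than 1.5 times. Of the lists, treat apart, cell cycle genes went from 4 lower to 10 under upper-quartile scaling and hypoxia genes from 5 to between 2 and 10, and neural genes were 8 lower with DESeq2 in place of 5. Counts of higher members went from 2 to 1 for neural genes with edgeR and to 3 without iNP-2, and from 3 to 2 for line and sex genes under quantile and upper-quartile scaling. Setting the 14 list members at 0 throughout a group to 3 reads moved no list median by more than 0.0946. Values under 0.223 rest on 3 reads or fewer in the shallowest library and carry little precision.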
